A study of Mus musculus with 4 samples.

Results

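The epithelial-mesenchymal transition switch genes are the 10 genes Snai1, Snai2, Twist1, Zeb1, Zeb2, Ovol1, Cdh1, Cdh2, Vim and Fn1. They were chosen by gene symbol, as transcription factors of the transition, cadherins, vimentin, fibronectin and the epithelial factor Ovol1, and each was found by its Ensembl mouse gene ID among the 38293 gene rows of the count files. RNA was sequenced from 4 MMTV-Neu tumours of FVB mice, 2 labelled AXL KO (AXL-/-) and 2 labelled WT (AXL+/+). Both groups carry the MMTV-Neu transgene, in which a mouse mammary tumour virus promoter, active mainly in mammary epithelium, drives the Neu (Erbb2) oncogene. AXL belongs to the TAM receptor tyrosine kinases and is often studied for its link to mesenchymal traits of carcinoma cells. The labels give no age, no treatment and no account of the AXL allele, and do not say that replicates came from separate animals. Intervals and p-values thus describe the spread among these 4 samples alone, part of which may be technical.

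In an epithelial-mesenchymal transition, epithelial cells lose their E-cadherin junctions and take on the intermediate filaments, matrix and motility of mesenchymal cells. The SNAI, ZEB and TWIST factors are its classic drivers, and SNAI and ZEB proteins repress the E-cadherin gene Cdh1 through E-box sequences. OVOL1 acts on the epithelial side, where OVOL factors repress Zeb1. In a whole tumour the mesenchymal genes are also expressed by fibroblasts, pericytes, endothelium and leukocytes, so a bulk level does not say which cells hold the RNA.

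Libraries held between 18929743 and 33131739 reads counted in genes, and AXL KO replicate 2 was the deepest. Axl itself was at 4.75 and 4.89 CPM in AXL KO replicates 1 and 2, against 61.8 and 35.2 CPM in WT replicates 1 and 2 (CPM is counts scaled to a common library size with edgeR's TMM factors). The luminal keratin genes Krt8 and Krt18 were abundant in all 4 libraries. Krt8 was at 636 and 529 CPM in AXL KO against 610 and 928 CPM in WT. A further luminal keratin gene, Krt19, was low, at 6.30 and 9.24 CPM in AXL KO against 3.27 and 8.17 CPM in WT. In the sample descriptions 3 libraries begin with 1 prefix, while AXL KO replicate 2 begins with a different one. Leaving that library out thus gives the values within the shared prefix, and the second prefix allows no comparison of its own.

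For none of the 10 genes did the difference between AXL KO and WT tumours pass the test, and for 9 of them the groups overlapped. The count called by edgeR's quasi-likelihood test, at a Benjamini-Hochberg adjusted p of 0.05 over all 14330 genes tested, was 0 of 10, and 0% of all tested genes were called. An unadjusted p under 0.05 was reached by 0 of the 10, against 2.19% of all tested genes. DESeq2 called 0 of the 10 and 0.112% of all tested genes, and limma-voom called 0 of the 10 and 0% of all tested genes. An unadjusted p under 0.05 was reached by 0 of the 10 in either tool, against 3.5% of all tested genes in DESeq2 and 1.99% in limma-voom. Log2 differences (AXL KO minus WT) were negative for 8 of the 10, with a median of −0.43. Over all tested genes 50.3% were negative and the median was −0.0019. The 8 are not a count of independent genes, since 5 of them, Snai1, Twist1, Cdh2, Vim and Fn1, ranked the 4 libraries in the same order.

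Single libraries stood at the ends of the range for many of the genes. AXL KO replicate 1 was the lowest of the 4 libraries for 8 of the 10 genes, a place it took for 24.7% of all tested genes. WT replicate 2 was the highest for 6 of the 10, a place it took for 34.6%. The highest library exceeded the lowest 4.90-fold for Cdh2, 4.12-fold for Snai1, 3.44-fold for Fn1, 2.61-fold for Twist1 and 2.56-fold for Vim, where the median over all tested genes was 1.53-fold. Zeb1 and Cdh1 stood at the other end, each with a range of 1.22-fold. The AXL KO pair lay wholly below the WT pair for 1 of the 10 genes, Ovol1, against 14.5% of all tested genes, and wholly above for 0 of the 10, against 14.7%.

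**Figure D1:**
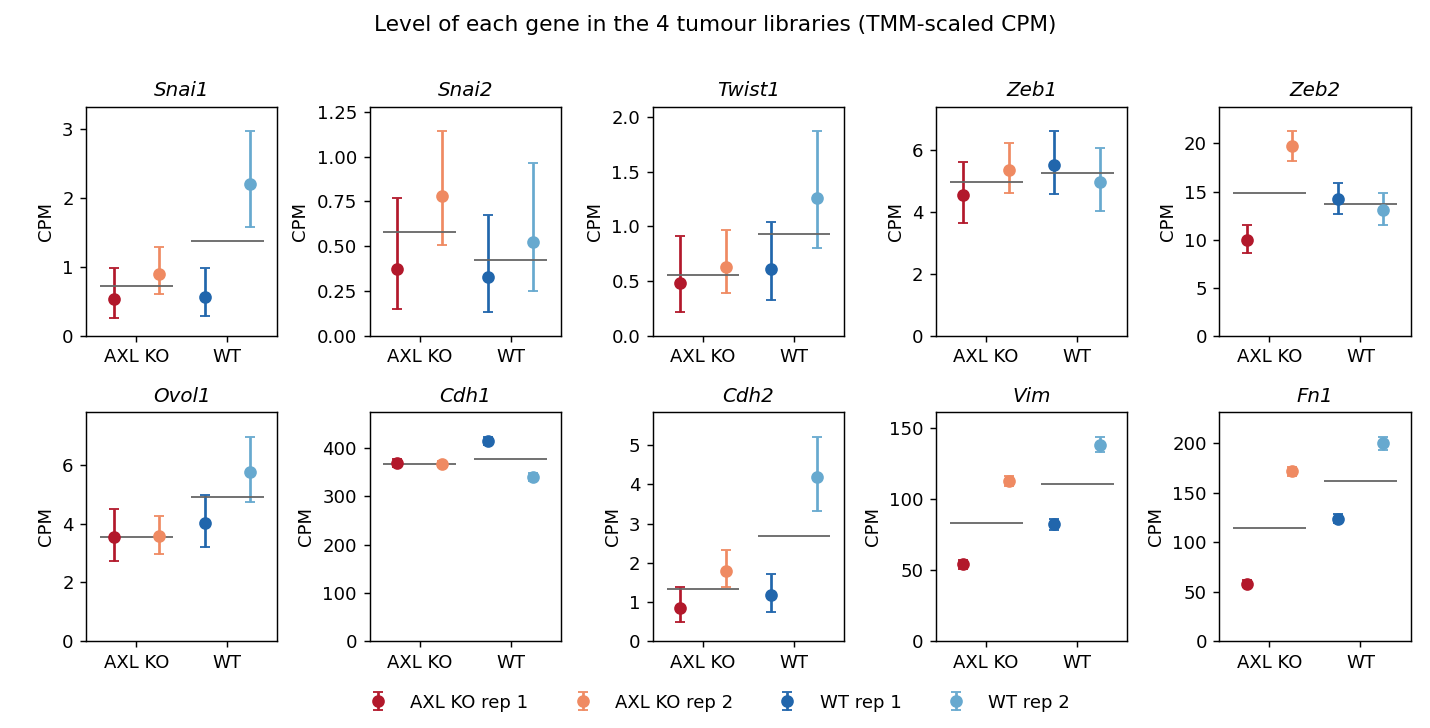
Level of each of the 10 genes in TMM-scaled CPM (linear axes from 0, each with its own range) in AXL KO and WT libraries. Points are single libraries, bars are 95% exact Poisson intervals that cover counting error only, and horizontal lines are group means; Cdh1 stays between 341 and 415 CPM, while Vim and Fn1 are lowest in AXL KO replicate 1 and highest in WT replicate 2.

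Per kilobase of exon the epithelial gene Cdh1 was the most abundant of the 10 in both groups. Its level was 80.8 and 80.1 CPM per kilobase in AXL KO replicates 1 and 2, against 90.7 and 74.6 in WT replicates 1 and 2. Vim and Fn1 followed, with means of 17.6 and 9.81 CPM per kilobase in AXL KO, against 23.3 and 13.8 in WT. The transcription factor genes and Cdh2 lay far below, with Ovol1 at 1.01 and 1.02 CPM per kilobase in AXL KO against 1.15 and 1.65 in WT, and the means of the others under 1 in either group. Vim ran from 11.4 to 23.8 CPM per kilobase in AXL KO and from 17.4 to 29.2 in WT. Fn1 ran from 4.96 to 14.7 in AXL KO, where it overlapped Vim, and from 10.6 to 17.1 in WT, where it did not. The order among Snai1, Snai2, Twist1, Zeb1, Zeb2 and Cdh2 differed between the groups, and neighbours in it overlapped. By this level 96.6% of tested genes with a length lay below Cdh1, 81.3% below Vim and 68.5% below Fn1. For the 6 genes Snai1, Snai2, Twist1, Zeb1, Zeb2 and Cdh2 that share ran from 4.97% to 14%.

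Snai1 encodes a zinc finger repressor whose best known target is Cdh1. The gene (ENSMUSG00000042821) lies on chromosome 2, plus strand, 167538195 to 167542814 in GRCm38. Its level was 0.534 and 0.900 CPM in AXL KO replicates 1 and 2, from 10 and 30 reads, against 0.561 and 2.20 CPM in WT replicates 1 and 2, from 12 and 42 reads. WT replicate 2 was high and WT replicate 1 lay between the AXL KO libraries, so the groups overlapped. The gap between the AXL KO libraries, 0.67 on the log2 scale, was larger than that of 85.6% of all tested genes. The 95% exact Poisson interval of WT replicate 2, 1.58 to 2.97 CPM, lay above those of all 3 others, which reached no higher than 1.28 CPM. Such intervals cover counting error only. The log2 difference was −0.89 ± 0.77 (SE), with a 95% interval of −2.86 to 1.08. Without WT replicate 2 it turned to 0.41, and without WT replicate 1 it was −1.56, with an unadjusted edgeR p of 0.044. In that fit 20.3% of all tested genes had an unadjusted p under 0.05, and the adjusted p of Snai1 was 0.232.

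The RefSeq promoter tables used here, of build GRCm38.p6 and thus of C57BL/6J and not FVB mice, held windows for 4 of the 10 genes, namely Snai1, Twist1, Vim and Zeb2, the last with 4 start sites. Each window runs from 250 bases before the start of the transcript to 50 bases from it onward. Those of Snai1 and Twist1 are shown because they are the ones with a match to the letters searched. All windows were searched on both strands for the E-box letters CACCTG, which read CAGGTG on the other strand and which SNAI and ZEB proteins are known to bind, and for ACGTG, which reads CACGT on the other strand, the core of the hypoxia response element, since hypoxia-inducible factor 1 is a known activator of Twist1. Capitals mark a match, and none of the matches overlap.
Snai1, chr2:167537945-167538244, plus strand: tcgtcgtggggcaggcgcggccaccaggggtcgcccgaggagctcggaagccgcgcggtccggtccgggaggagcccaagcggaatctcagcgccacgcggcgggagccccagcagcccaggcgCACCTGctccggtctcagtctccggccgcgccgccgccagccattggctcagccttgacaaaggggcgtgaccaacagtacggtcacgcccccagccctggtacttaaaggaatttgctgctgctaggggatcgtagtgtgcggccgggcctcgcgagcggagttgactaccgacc
Twist1, chr12:33957421-33957720, plus strand: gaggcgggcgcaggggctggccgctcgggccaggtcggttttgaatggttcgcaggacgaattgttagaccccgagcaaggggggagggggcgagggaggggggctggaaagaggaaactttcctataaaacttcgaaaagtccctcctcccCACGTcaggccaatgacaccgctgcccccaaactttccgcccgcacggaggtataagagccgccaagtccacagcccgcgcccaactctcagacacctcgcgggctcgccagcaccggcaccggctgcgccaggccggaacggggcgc
The Snai1 window held 1 E-box match, which begins 126 bases upstream of the start, and 0 matches of the hypoxia core. The Twist1 window held 0 E-box matches and 1 match of the hypoxia core, which begins 98 bases upstream. Among all 32851 RefSeq windows, 20.2% held the E-box letters and 19.6% the hypoxia core letters, so either match is common. The Vim window and the 4 Zeb2 windows held 0 of both. A match is only a run of letters and was not tied to binding or to the levels measured here.

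Snai2, also called Slug, encodes the other main SNAI repressor, which marks basal mammary epithelium and many mesenchymal cells. It lies on chromosome 16 (plus strand, 14705852 to 14709385). The level was 0.374 and 0.780 CPM in AXL KO replicates 1 and 2, from 7 and 26 reads, against 0.327 and 0.524 CPM in WT replicates 1 and 2, from 7 and 10 reads. AXL KO replicate 2 was the highest and WT replicate 1 the lowest, and the Poisson intervals of all 4 libraries overlapped. It was 1 of 2 genes with a positive log2 difference, 0.50 ± 0.67 (SE; 95% interval −1.19 to 2.20), which turned to −0.19 without AXL KO replicate 2. Basal keratin genes were near the floor of these libraries too, with Krt5 at 0.641 and 0.540 CPM in AXL KO against 1.36 and 0.838 CPM in WT. Relative to Snai1, per kilobase, Snai2 stood at a log2 ratio of −0.75 and −0.51 in AXL KO replicates 1 and 2, against −0.96 and −2.22 in WT replicates 1 and 2. Snai2 was therefore below Snai1 in each of the 4 libraries. The Poisson intervals of the 2 genes overlapped except in WT replicate 2, so the order was beyond counting error in that library alone.

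Twist1 encodes a basic helix-loop-helix factor that promotes invasion and is expressed by fibroblasts. It lies on chromosome 12 (plus strand, 33957671 to 33959829). The level was 0.481 and 0.630 CPM in AXL KO replicates 1 and 2, from 9 and 21 reads, against 0.608 and 1.26 CPM in WT replicates 1 and 2, from 13 and 24 reads. WT replicate 2 was the highest library and the other 3 lay between 0.481 and 0.630 CPM. The log2 difference was −0.71 ± 0.60 (SE; 95% interval −2.24 to 0.82), and −0.097 without WT replicate 2. Snai1, Snai2 and Twist1 were the 3 genes that did not reach 1 CPM in 2 libraries, and at 7 to 42 reads a library a change of small size could not be resolved.

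Zeb1 and Zeb2 encode paired zinc finger and homeodomain repressors that are held down by the miR-200 family in epithelial cells. Zeb1 lies on chromosome 18 (plus strand, 5591860 to 5775467) and Zeb2 on chromosome 2 (minus strand, 44983632 to 45117395). Zeb1 was at 4.54 and 5.37 CPM in AXL KO replicates 1 and 2, against 5.52 and 4.97 CPM in WT replicates 1 and 2. The counting intervals of Zeb1 overlapped in all 4 libraries, and the log2 difference was −0.080 ± 0.32 (SE; 95% interval −0.91 to 0.75). It was 0.028 without AXL KO replicate 1. Zeb2 was at 9.93 and 19.7 CPM in AXL KO replicates 1 and 2, against 14.2 and 13.1 CPM in WT replicates 1 and 2. The WT libraries lay between the 2 AXL KO libraries, so the widest gap in Zeb2 was inside the AXL KO group. That gap, 0.98 on the log2 scale, was larger than the AXL KO gap of 92.6% of all tested genes. The log2 difference was 0.12 ± 0.39 (SE; 95% interval −0.86 to 1.10) and −0.48 without AXL KO replicate 2. The antisense gene Zeb2os overlaps 653 exon bases of Zeb2 and had 19 and 43 reads in AXL KO against 12 and 23 in WT. Zeb2 had 186 and 657 reads in AXL KO against 304 and 250 in WT, so without a stated strand setting a small share of its reads is uncertain.

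Ovol1 encodes a zinc finger repressor that holds cells in the epithelial state. It lies on chromosome 19 (minus strand, 5549136 to 5560646). The level was 3.53 and 3.57 CPM in AXL KO replicates 1 and 2, against 4.02 and 5.76 CPM in WT replicates 1 and 2. The AXL KO pair lay under the WT pair, with the AXL KO values nearly equal and WT replicate 2 the highest. The log2 difference was −0.46 ± 0.36 (SE; 95% interval −1.39 to 0.47), with an unadjusted edgeR p of 0.260 and an adjusted p of 0.9997, so it did not pass. Leaving out 1 library at a time kept it negative, from −0.70 to −0.18. Opposite-strand transcripts of the reference annotation overlap Ovol1 exons over 690 and 76 bases, and their reads cannot be told apart here.

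Cdh1 encodes E-cadherin, the adhesion molecule of epithelial junctions, and Cdh2 encodes N-cadherin, which often replaces it in mesenchymal cells. Cdh1 lies on chromosome 8 (plus strand, 106603351 to 106670246) and Cdh2 on chromosome 18 (minus strand, 16588877 to 16809246). Cdh1 was at 370 and 367 CPM in AXL KO replicates 1 and 2, against 415 and 341 CPM in WT replicates 1 and 2. The AXL KO values lay between the WT values, and the log2 difference was −0.038 ± 0.20 (SE), with a 95% interval of −0.56 to 0.48. That interval was the narrowest among the 10 genes. Without WT replicate 1 the difference was 0.11. Cdh2 was at 0.855 and 1.8 CPM in AXL KO replicates 1 and 2, from 16 and 60 reads, against 1.17 and 4.19 CPM in WT replicates 1 and 2, from 25 and 80 reads. WT replicate 2 was high, the other 3 libraries lay at 1.8 CPM or lower, and the groups overlapped. The log2 difference was −0.97 ± 0.75 (SE; 95% interval −2.87 to 0.94). Without WT replicate 2 it turned to 0.24, and without WT replicate 1 it was −1.60, with an unadjusted edgeR p of 0.042 and an adjusted p of 0.227. The library with the most Cdh2 had the least Cdh1, yet Cdh1 there was still within 1.22-fold of every other library.

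Vim encodes vimentin, the intermediate filament protein of mesenchymal cells, and Fn1 encodes fibronectin, a matrix glycoprotein laid down by fibroblasts and by cells in transition. Vim lies on chromosome 2 (plus strand, 13573927 to 13582826) and Fn1 on chromosome 1 (minus strand, 71585520 to 71653200). Vim was at 54.1 and 113 CPM in AXL KO replicates 1 and 2, against 82.3 and 139 CPM in WT replicates 1 and 2. The 2 groups interleaved, with each group holding a low and a high library. The log2 difference of Vim was −0.41 ± 0.43 (SE; 95% interval −1.50 to 0.69). It was near 0 when either extreme library was left out, at 0.019 without WT replicate 2 and 0.025 without AXL KO replicate 1, and −1.05 without AXL KO replicate 2. Fn1 was at 58.0 and 171 CPM in AXL KO replicates 1 and 2, against 124 and 200 CPM in WT replicates 1 and 2. The groups interleaved in the same order as for Vim. Its log2 difference was −0.49 ± 0.54 (SE; 95% interval −1.88 to 0.89), and 0.080 without AXL KO replicate 1. Without AXL KO replicate 2, which leaves the libraries of the shared prefix, it was −1.49, with an unadjusted edgeR p of 0.0186 against 1.54% of all tested genes under 0.05, and an adjusted p of 0.9997. The gap between the AXL KO libraries, 1.56 on the log2 scale for Fn1 and 1.06 for Vim, was larger than that of 97.5% and 93.6% of all tested genes.

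Within the shared prefix, where AXL KO replicate 1 stands against both WT libraries, all 10 log2 differences were negative, from −1.65 for Cdh2 to −0.050 for Cdh1, with a median of −0.72. Of all tested genes 53.5% were negative in that fit, whose median was −0.031. Without AXL KO replicate 1 instead, 5 of the 10 were negative and the median was −0.012, and without WT replicate 2 there were also 5 negative and the median was −0.039. Without WT replicate 1 there were 7 negative and the median was −0.71. The number of negative genes and the size of the median thus depended on which library was left out. The median came close to 0 in some of these fits but did not turn positive.

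**Figure D2:**
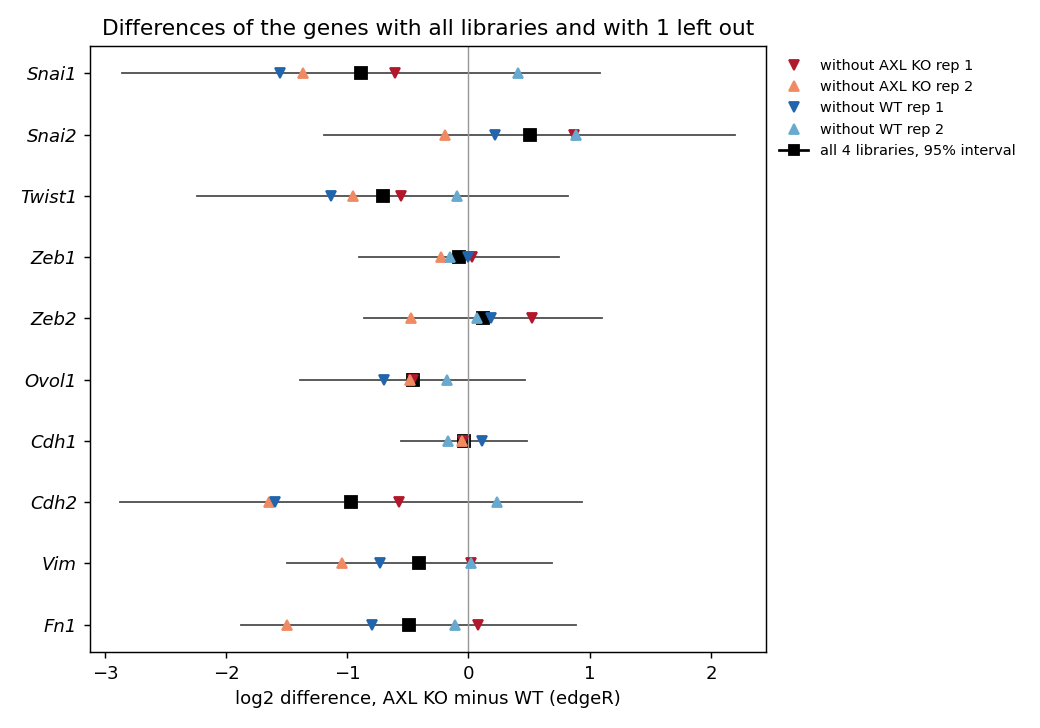
Log2 difference of each gene, AXL KO minus WT, from edgeR. Black squares with 95% intervals use all 4 libraries and all intervals cross 0; coloured triangles leave out 1 library each, and for Snai1, Snai2, Zeb1, Zeb2, Cdh1, Cdh2, Vim and Fn1 at least 1 triangle lies on the other side of 0.

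Ratios within a library hardly depend on its scaling and here set mesenchymal transcripts against Cdh1, 1 epithelial gene, in each tumour. Per kilobase, Vim over Cdh1 stood at a log2 ratio of −2.82 and −1.75 in AXL KO replicates 1 and 2, against −2.38 and −1.35 in WT replicates 1 and 2. Fn1 over Cdh1 stood at −4.02 and −2.45 in AXL KO replicates 1 and 2, against −3.10 and −2.13 in WT replicates 1 and 2. Both ratios put the libraries in the same order, with AXL KO replicate 1 lowest, WT replicate 1 next, then AXL KO replicate 2 and WT replicate 2. Cdh2 over Cdh1 kept that order, at −9.44 and −8.42 in AXL KO replicates 1 and 2 against −9.19 and −7.14 in WT replicates 1 and 2. Zeb1 over Cdh1 was nearly level, between −7.49 and −7.24 in AXL KO and between −7.38 and −7.24 in WT. Each of these ratios to Cdh1 overlapped between the groups. Cdh1 itself was not level against other epithelial genes. Cdh1 over Krt8 stood at −2.01 and −1.75 in AXL KO replicates 1 and 2, against −1.78 and −2.67 in WT replicates 1 and 2. Cdh1 over Epcam stood at −2.89 and −2.93 in AXL KO, against −2.74 and −2.56 in WT. The order of the libraries thus holds for Cdh1 as divisor, and other epithelial divisors were not used for Vim, Fn1 and Cdh2.

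**Figure D3:**
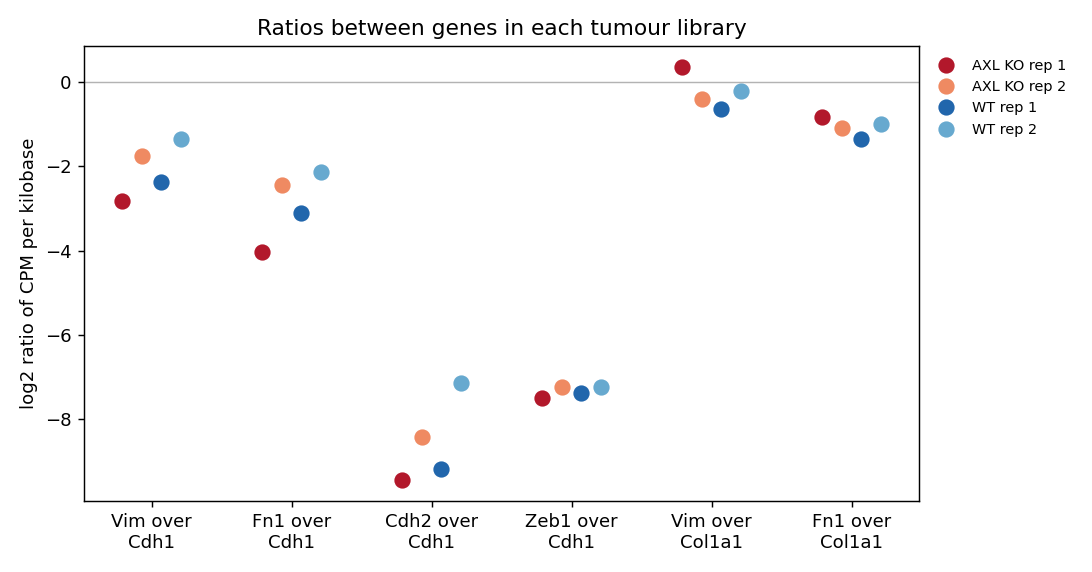
Log2 ratios of CPM per kilobase within each library, 1 point a library, with AXL KO left of WT and no error bars because each ratio is a single value. Vim over Cdh1 runs from −2.82 to −1.35 with the groups interleaved, whereas Zeb1 over Cdh1 stays between −7.49 and −7.24.

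The summed levels of fibroblast and of pericyte markers ranked the 4 libraries in the same order as Vim and Fn1, though single markers did not all do so. As a mean of log2 deviations, the fibroblast markers were slightly higher in AXL KO replicate 2 (0.44) than in WT replicate 2 (0.42). Of 8 fibroblast markers 6 had a negative log2 difference (median −0.14), and their summed level was 212 and 711 CPM in AXL KO replicates 1 and 2, against 518 and 734 CPM in WT replicates 1 and 2. The defining fibroblast genes Dcn and Lum were lowest in AXL KO replicate 1, at 26.6 and 8.44 CPM, whereas Pdgfra was lowest in WT replicate 2, at 13.2 CPM. Of 8 pericyte and smooth muscle markers 5 were negative (median −0.37), with sums of 92.7 and 140 CPM in AXL KO replicates 1 and 2 against 107 and 176 CPM in WT replicates 1 and 2. The pericyte gene Rgs5, the largest part of that sum in AXL KO replicate 1, went another way, at 44.9 and 56.1 CPM in AXL KO replicates 1 and 2 against 35.6 and 51.2 CPM in WT replicates 1 and 2, with a log2 difference of 0.22. The collagen gene Col1a1 was at 58.2 and 205 CPM in AXL KO replicates 1 and 2, against 177 and 223 CPM in WT replicates 1 and 2. Set against Col1a1 per kilobase, Fn1 spread only from −1.09 to −0.84 in AXL KO and from −1.35 to −0.99 in WT on the log2 scale. Vim over Col1a1 was highest in AXL KO replicate 1, at 0.36, and lay between −0.63 and −0.22 in the other 3 libraries. Twist1 over Col1a1 spread more widely, from −6.15 to −4.67 in AXL KO and from −5.98 to −5.37 in WT, with 9 to 24 Twist1 reads a library. The fibroblast median was 0.22 without WT replicate 2 and 0.26 without AXL KO replicate 1. In whole tumours fewer cells of a type and less RNA per cell cannot be told apart, and the part of stromal cells in the levels of Vim, Fn1, Cdh2 and Twist1 was not tested.

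Other cell types of the tumours did not all share that order, though the basal and myoepithelial sum did. Endothelial markers summed to 99.3 and 137 CPM in AXL KO replicates 1 and 2, against 118 and 113 CPM in WT replicates 1 and 2, with 6 of 8 positive. Macrophage markers summed to 617 and 815 CPM in AXL KO, against 713 and 508 CPM in WT, also with 6 of 8 positive. Zeb2, which macrophages and endothelium express, had its lowest value in AXL KO replicate 1 and its highest in AXL KO replicate 2, as did the endothelial sum. T cell markers summed to 14.8 and 20.8 CPM in AXL KO, against 26.1 and 5.71 CPM in WT, with 5 of 8 positive, and adipocyte markers to 172 and 200 CPM in AXL KO, against 119 and 224 CPM in WT, with 6 of 8 positive. Luminal epithelial markers summed to 3096 and 2845 CPM in AXL KO, against 3022 and 3716 CPM in WT, with 5 of 8 negative. Basal and myoepithelial markers summed to 16.7 and 29.8 CPM in AXL KO, against 27.6 and 55.3 CPM in WT, with 4 of 6 tested genes negative. Most of that sum was Acta2, which like Cnn1 is also on the pericyte and smooth muscle list, so it is not a measure of basal cells alone. The defining basal gene Trp63 went the other way, at 2.51 and 2.13 CPM in AXL KO against 0.795 and 1.62 CPM in WT. Schwann cell markers had 4 of 6 negative, and their sum, 1096 and 1089 CPM in AXL KO against 1128 and 1560 CPM in WT, is not a measure of nerve, since it holds Erbb3, which mammary epithelium expresses. Neutrophil and skeletal muscle markers were near the floor, with 2 tested genes each, sums of at most 6.60 and 2.93 CPM in any library, and Ly6g, Myh4 and Tnnt3 at 0 reads in all 4. Their part in the levels of the 10 genes was not tested.

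**Figure D4:**
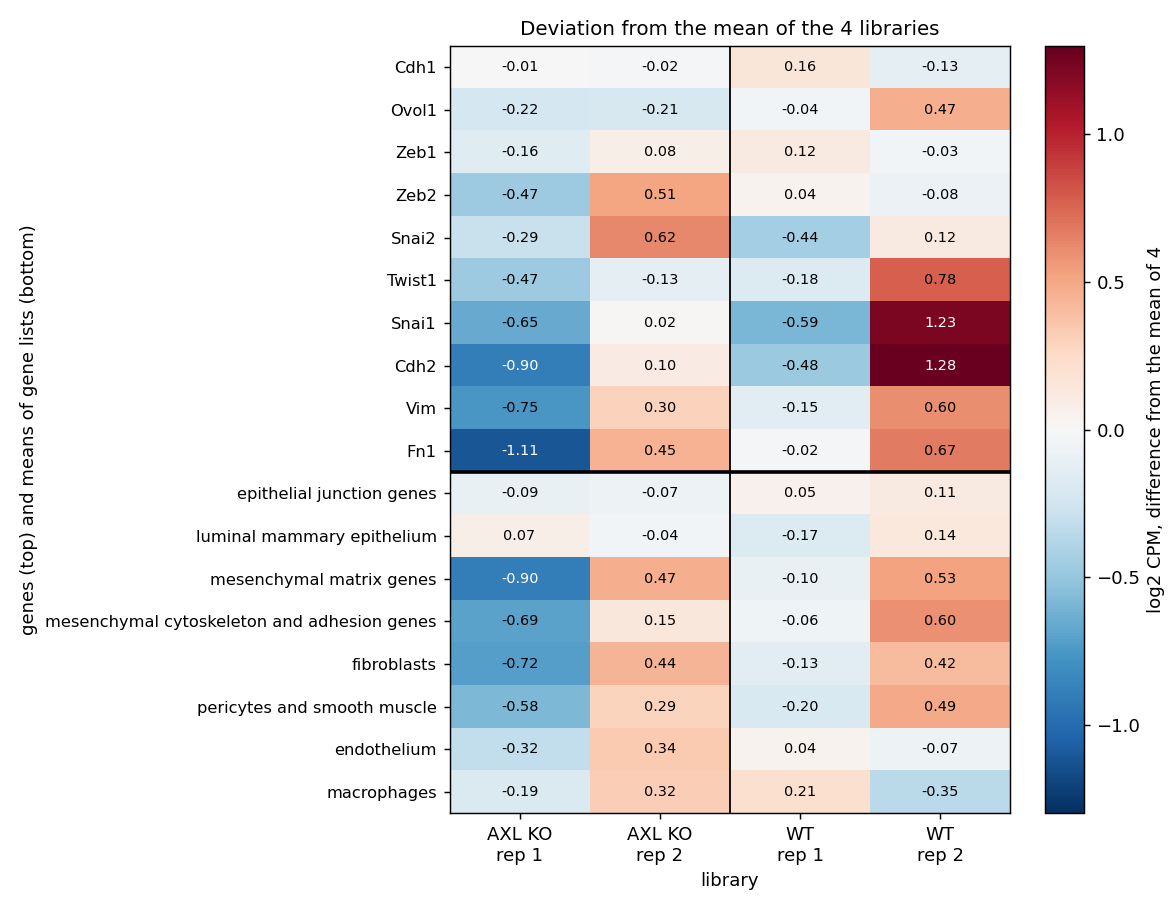
Deviation of log2 CPM from its mean over the 4 libraries, for the 10 genes (upper rows) and as means over the tested genes of 8 lists (lower rows), with AXL KO libraries left of WT libraries. Fn1, Vim and Cdh2 share low values in AXL KO replicate 1 (−1.11, −0.75 and −0.90) with the matrix, fibroblast and pericyte lists, while Cdh1 and the plotted junction and luminal lists lie between −0.17 and 0.16.

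The other genes of the transition gave the same picture, in that 0 genes of any list except Axl passed in edgeR or DESeq2. Axl, a member of the list of mesenchymal cytoskeleton and adhesion genes, is the knocked-out gene and was called by DESeq2 but not by edgeR. In that list 15 of 17 tested genes were negative, with a median of −0.32, and the AXL KO pair lay under the WT pair for 3 of them, Axl included, where 14.5% of all tested genes did so. Beside Axl the smallest p belonged to Acta2, which encodes smooth muscle actin, at 9.99 and 21.1 CPM in AXL KO against 18.7 and 46.6 CPM in WT, and to the hyaluronan receptor gene Cd44, with a log2 difference of −0.60. Of 22 tested mesenchymal matrix genes 20 were negative (median −0.28), and the groups overlapped for each of the 22, where 29.2% of all tested genes had groups that did not overlap. The collagen cross-linking enzyme gene Loxl2 and the tenascin gene Tnc had log2 differences of −0.84 and −0.71. Without WT replicate 2 the medians of the cytoskeletal and matrix lists were 0.019 and 0.027, and without AXL KO replicate 1 they were 0.020 and 0.16.

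Of 14 further transcription factors of the transition 8 were tested and 6 of these were negative (median −0.10). Sox4, a SOX factor linked to TGF-beta induced transition, was at 130 and 181 CPM in AXL KO replicates 1 and 2, against 201 and 257 CPM in WT replicates 1 and 2. It was the single one of the 8 whose AXL KO pair lay under the WT pair, where 14.5% of all tested genes did so. Its log2 difference was −0.56 ± 0.25 (SE), with an unadjusted edgeR p of 0.0707. Tcf3, which encodes the E2A partner of TWIST proteins, and Klf8 had log2 differences of −0.22 and 0.45. The paralogs Snai3 and Twist2 had 5 to 23 and 2 to 15 reads in AXL KO, against 5 to 9 and 7 to 8 reads in WT, and were too low to test.

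Epithelial genes had small differences by their medians, as Cdh1 did. Of 23 junction genes 18 were negative (median −0.13), and the AXL KO pair lay under the WT pair for 7 of them, where 14.5% of all tested genes did so. Among the 7 was the tight junction gene Tjp3 at 34.0 and 26.0 CPM in AXL KO against 40.3 and 47.7 CPM in WT. The desmosomal genes Perp and Dsg2 had log2 differences of −0.51 and −0.42. Of 12 tested epithelial transcription and splicing factors 8 were negative (median −0.14), with Grhl2, a grainyhead factor that opposes Zeb1, at 66.3 and 65.0 CPM in AXL KO against 76.1 and 131 CPM in WT, Ehf at a log2 difference of −0.43 and Grhl1 at 0.39. Ovol1 and Grhl2 had the same shape, with a level AXL KO pair and WT replicate 2 at the top. Of 12 epithelial keratin and membrane genes 7 were negative (median −0.053), with the protease inhibitor gene Spint1, Krt18 and Krt7 at −0.34, −0.65 and −0.69. Without WT replicate 2 Krt18 was at −0.072 and Krt7 at 0.0074.

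Upstream of the factors, 8 of 11 tested inducing ligand genes were negative (median −0.31). Wnt5a, a non-canonical Wnt ligand, was at 16.8 and 9.90 CPM in AXL KO replicates 1 and 2, against 7.25 and 1.20 CPM in WT replicates 1 and 2, with a log2 difference of 1.65 ± 0.82 (SE) and an unadjusted edgeR p of 0.0999. The AXL ligand gene Gas6 and the Wnt ligand gene Wnt5b had log2 differences of −0.54 and −0.57. The AXL KO pair lay under the WT pair for 4 of the 11 ligand genes, these among them, against 14.5% of all tested genes. It lay above for 1, Wnt5a, against 14.7%. Of 14 receptor genes 11 were positive (median 0.20), with Egfr at 132 and 111 CPM in AXL KO against 101 and 83.3 CPM in WT, Fgfr1 at a log2 difference of 0.54 and the type II TGF-beta receptor gene Tgfbr2 at −0.25. The receptor median was −0.078 without WT replicate 2. Of 18 corepressor and turnover genes of SNAI and ZEB proteins 15 were negative (median −0.069), with the kinase gene Pak1 at 59.8 and 54.0 CPM in AXL KO against 57.9 and 150 CPM in WT, and the chromatin repressor genes Ezh2 and Hdac1 at −0.28 and −0.25. Without WT replicate 2 the log2 difference of Pak1 was −0.025.

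The profile of each gene over the 4 libraries was set beside those of 194 tested genes of these lists by the mean absolute distance between log2 CPM values centred on their own means. The 4 points of a profile are shared with every other gene, so likeness is a description. Nearest to Fn1 were Col1a2 at a distance of 0.052, Mmp3 at 0.060 and Cdh11 at 0.096, where the median over the 194 was 0.54. Nearest to Vim were Col6a1, Col6a2 and Des at 0.049, 0.068 and 0.080, against a median of 0.42. Cdh2 was nearest to Tagln, Acta2 and Krt7 at 0.15, 0.17 and 0.22, and Snai1 to Tagln, Krt7 and Ncam1 at 0.17, 0.18 and 0.21, against medians of 0.66 and 0.62. Zeb2 was nearest to the endothelial markers Esam and Tek at 0.078 and 0.11 and to Mmp2 at 0.14, against a median of 0.36. Ovol1 was nearest to Dsg2, Ehf and Ctnna1 at 0.023, 0.033 and 0.064, against a median of 0.34, and Cdh1 to Btrc, Ctbp1 and Marveld2 at 0.031, 0.041 and 0.056, against 0.32. Zeb1 was nearest to Fbxo11, Gsk3b and Sin3a at 0.017, 0.029 and 0.052, against 0.30. Snai2 and Twist1 averaged under 1 CPM and were left out.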

How the data were processed

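The authors deposited whole-number read counts per gene and tumour library, with no normalisation. Build GRCm38 and the tools HTSeq 0.5.3, TopHat2 2.0.10, DESeq2 1.4.5 and CASAVA 1.8 come from the submitters' processing notes, which assign no roles. How reads were filtered, the annotation release and the strand setting were not given in the sources used here. Each file ends with 5 summary lines, which stayed out of library sizes and tests; reads outside genes took 5.27% to 8.11% of all lines, ambiguous reads 0.635% to 1.85% and alignments that were not unique 23.2% to 28.1%.

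Groups came from the sample titles. Pairs of libraries differed by a chi-square of 30.3 to 151 per degree of freedom, so none repeated another. Genes were kept with filterByExpr, which left 14330 of 20587 genes with a count and all 10 switch genes. The groups were compared with edgeR 4.0.16 (TMM factors, glmQLFit with legacy=FALSE, glmQLFTest) and adjusted over all genes tested. Standard errors and 95% intervals were derived from the F statistic and its degrees of freedom. Log2 CPM for deviations and ratios used a prior count of 2. Exon lengths and positions came from GENCODE M21. Alternatives were DESeq2 1.42.0, limma-voom (limma 3.58.1), other scalings and filters, a replicate block and each library left out, with the tested genes kept. R was 4.3.3.

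Named were the 10 genes, Axl, up to 3 genes of smallest p in each of 9 pathway lists, 3 defining markers of each of 11 cell types where described, and the 3 nearest profiles. One gene that this rule names is not reported here. Col1a1 was named after its values were seen, as were the further genes at 0 reads and the paralogs. The genes and lists were chosen with earlier results of these data known.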

Additional observations from a re-analysis of the deposited data

How the results depend on the processing

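Under every alternative run (other scalings, filters, DESeq2, limma-voom, the replicate block and each library left out) 0 of the 10 genes were called. The count over all genes was 0 with edgeR and 16 with DESeq2, and ran from 0 to 216 with 1 library left out, the 216 without WT replicate 1. Directions of the 10 genes turned only with a library left out. Log2 differences then ran from −1.56 to 0.41 for Snai1, −0.19 to 0.89 for Snai2, −0.23 to 0.028 for Zeb1, −0.48 to 0.52 for Zeb2, −0.17 to 0.11 for Cdh1, −1.65 to 0.24 for Cdh2, −1.05 to 0.025 for Vim and −1.49 to 0.080 for Fn1. Twist1 and Ovol1 stayed negative. Of 220 list medians recomputed, 199 moved by less than the spread between replicates and 21 by more; the cause was not tested. The labels give no pairing beyond the shared replicate number. Deviations of same-numbered libraries had a correlation of −0.045 over genes, which cannot exclude a pairing that moves only some genes. Snai1, Snai2, Twist1, Ovol1, Cdh2, Vim and Fn1 were higher in replicate 2 than in replicate 1 of both groups. Zeb1, Zeb2 and Cdh1 were not. Snai1, Twist1, Cdh2, Vim and Fn1 ranked the libraries in the same order, so they are not independent. The share of all tested genes higher in replicate 2 of both groups was not computed, so no pairing is read from these genes. The replicate block left 0 genes called by edgeR, and 571 genes had an unadjusted p under 0.05, against 314 with no block. Snai1, Snai2 and Twist1, at 7 to 42 reads a library, were removed by the filter of 1 CPM in 2 libraries, so they have no value there.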
